A study of Homo sapiens with 6 samples.

Results

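The genes described here encode the subunits of the proteasome and the factors that assemble it, 46 of the 60604 genes in the count table. Membership was set by name, as the protein-coding genes whose symbol is PSMA, PSMB, PSMC, PSMD, PSME, PSMF or PSMG followed by a number, apart from PSMB8 and PSMB9. The choice was made with earlier results of these data known. The set holds 8 genes of the alpha ring and 9 of the beta ring of the 20S core, 6 ATPases and 14 other genes of the 19S particle, 5 activators and inhibitors, and 4 assembly factors. RNA sequencing was done on the established line MIA PaCa-2, human pancreatic carcinoma cells labelled as wild type. One group received black phosphorus (BP, a layered form of the element) at 12.5 µg/ml, and the other received BP at 12.5 µg/ml together with 10 mg/ml of Huaier, a medicinal fungus extract. Each group held 3 libraries, and both groups carried BP, so the comparison is of Huaier added to BP. The treatment time is not in the sources used here, and no library without BP was analysed here.

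The proteasome is the barrel-shaped protease that degrades proteins tagged with ubiquitin. Its 20S core stacks rings of alpha subunits, which gate the entrance, around rings of beta subunits, of which PSMB5, PSMB6 and PSMB7 cut the chain. The 19S particle caps the core: its ATPases unfold and thread the substrate, and its other subunits bind ubiquitin chains and cut them off. When proteasome activity falls short, the transcription factor NFE2L1 is known to be processed with the help of DDI2 and NGLY1, to pair with a small MAF protein and to raise subunit genes together through antioxidant response elements in their promoters. Tumour cells are known to depend on proteasome capacity, which makes the coordinated level of these transcripts a common readout of protein stress.

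Total counts on genes ran from 15657593 to 17036565 per library, so that 3 counts corresponded to between 0.160 and 0.222 CPM. CPM are counts scaled to a common library size, here by TMM, which sets the bulk of genes to one level across libraries. No label says that replicate libraries are separate cultures, so the p-values rest on a spread between libraries that may be technical. BP+Huaier 3 stood apart from its group on the first principal component (72.4% of the variance), at 11.5 against 65.1 and 66.0, with the BP libraries between -50.5 and -43.4. Of the markers of the cell line, KRT18 and VIM were at 450 ± 14.1 and 3493 ± 165 CPM in BP (SD, n = 3), and EPCAM was near 0 (0.089 ± 0.15 CPM). The 4 immune markers summed to at most 0.443 CPM in any library, and PTPRC, CD3E and the fibroblast marker DCN had no counts. PECAM1 and VWF were near 0 (at most 0.295 CPM), whereas COL1A2 (519 ± 28 CPM in BP) and CDH5 (19 ± 1.92) were detected. KRT18 and COL1A1 were called higher with Huaier and CDH5 lower. The part of these shifts in the results was not tested.

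With Huaier added, few proteasome transcripts passed the test. Of the 43 proteasome genes with enough counts for the test, 0 were called higher and 2 were called lower, PSMD5 and PSMD12, with an adjusted p below 0.05 in edgeR's quasi-likelihood test, Benjamini-Hochberg over 15022 genes. Every adjusted p given here is edgeR's unless another tool is named. The calls are 4.65% of the set, where 29.3% of all tested genes were called, 14.4% higher and 15% lower, and where 29.4% of the protein-coding ones were. Among the 3259 tested genes at least as abundant as the lower quartile of the proteasome genes, the share called was 30.3%. Without BP+Huaier 3, 21 were called higher and 4 lower, where 28.8% of all genes were called higher and 31% lower. At an unadjusted p under 0.05, 7 proteasome genes were higher and 4 lower by edgeR, 11 of 43 where 43.3% of all genes passed, while DESeq2 called 2 higher (PSMD7 and PSMD8) and limma-voom 1 (PSMD7), so none outside the 19S particle, and each called 2 lower. The libraries measure RNA from whole cultures and CPM are relative to each library, so neither cell number nor total RNA per cell can be read from them.

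Most intervals of the differences left out a change of 2-fold. The 95% interval of the log2 fold change lay within 1 on either side, which leaves out a change of 2-fold, for 41 of the 43 genes, or 95.3%. The share was 54.0% over all tested genes and 73.7% over those of comparable abundance. It depends on the size of the differences as well as on the width of the intervals. The exceptions were PSMB10, whose interval ran from a log2 fold change of -1.36 to -0.11, and PSMB3, from 0.02 to 1.01. The median log2 fold change was 0.10 over the proteasome genes and -0.02 over all genes. The groups stood apart, with no overlap of values, for 11 of the 43 genes (25.6%), 4 with BP+Huaier above and 7 below, against 46.8% of all tested genes. Scaling by library size alone moved the median of all genes to -0.28 and that of the proteasome genes to -0.17, with 0 of them called higher and 6 lower. Over all genes that scaling gave 1051 higher and 2959 lower calls, in place of 2160 and 2246.

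**Figure D1:**
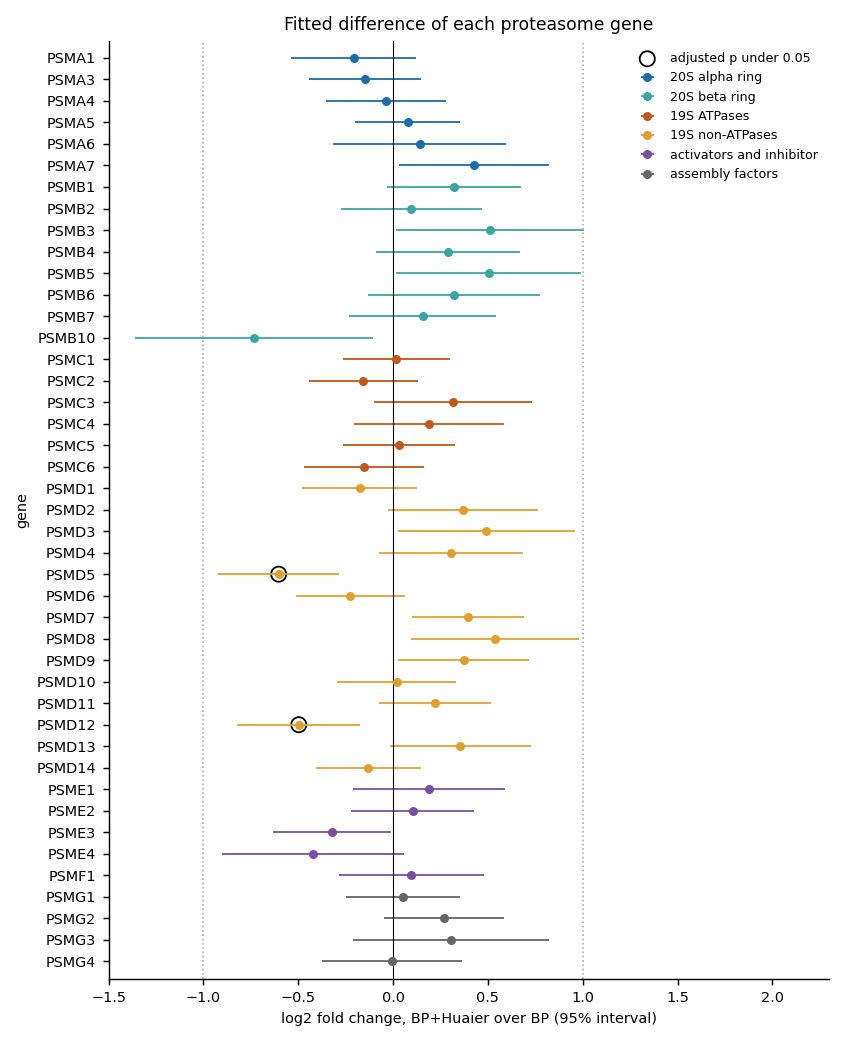
Log2 fold change of BP+Huaier over BP for each of the 43 tested proteasome genes (x axis, points) with the 95% interval (bars), in the colour of the subcomplex, with dotted lines at -1 and 1. PSMD5 and PSMD12, both left of 0, are the 2 circled genes with an adjusted p under 0.05, and 41 of the 43 intervals stay between the dotted lines.

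PSMD5 and PSMD12, the genes that fell, both serve the 19S particle. PSMD5 (ENSG00000095261.14, GRCh38 chromosome 9, 120815496 to 120842951) is a chaperone that helps the base of the 19S particle to form and is not part of the finished particle. It was at 98.5, 109.5 and 85.5 CPM in BP 1, 2 and 3, and at 65.8, 60.0 and 67.4 CPM in BP+Huaier 1, 2 and 3. All 3 BP+Huaier libraries lay below every BP library, and BP+Huaier 3 sat with the rest of its group. The fall was 1.52-fold, a log2 fold change of -0.60 ± 0.14 (SE; adjusted p = 0.014, range 4.7e-04 to 0.079 over 16 alternatives). PSMD12 (ENSG00000197170.10, chromosome 17, 67337916 to 67366605) is a scaffold subunit of the 19S lid. It was at 86.9, 93.1 and 77.0 CPM in BP and at 53.2, 62.4 and 66.4 CPM in BP+Huaier, again with no overlap. It fell 1.41-fold, by 0.50 ± 0.14 on the log2 scale (SE; adjusted p = 0.031, range 0.0010 to 0.13 over 16 alternatives). PSMD5 was no longer called once BP 1 (0.071), BP 2 (0.079) or BP+Huaier 2 (0.074) was left out, and PSMD12 once any library other than BP+Huaier 3 was (0.068 to 0.13).

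The promoters of both genes hold a match to TGACNNNGC, the core pattern of an antioxidant response element. They are printed beside those of PSMB3 and PSMD3, the genes with such a match that had the highest fitted differences. Binding to these matches was not tested. Each line is the 250 bases before the gene's start in RefSeq, GRCh38.p14, 5′ to 3′, with the match to TGACNNNGC in capitals. The windows are chr9:120842923-120843172 on the minus strand for PSMD5, chr17:67366578-67366827 on the minus strand for PSMD12, chr17:38752491-38752740 on the plus strand for PSMB3 and chr17:39980557-39980806 on the plus strand for PSMD3.
PSMD5: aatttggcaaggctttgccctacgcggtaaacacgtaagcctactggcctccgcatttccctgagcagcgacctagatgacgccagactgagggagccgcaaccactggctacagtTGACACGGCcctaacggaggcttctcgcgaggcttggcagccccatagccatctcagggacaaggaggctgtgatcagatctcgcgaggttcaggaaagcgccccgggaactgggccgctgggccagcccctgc
PSMD12: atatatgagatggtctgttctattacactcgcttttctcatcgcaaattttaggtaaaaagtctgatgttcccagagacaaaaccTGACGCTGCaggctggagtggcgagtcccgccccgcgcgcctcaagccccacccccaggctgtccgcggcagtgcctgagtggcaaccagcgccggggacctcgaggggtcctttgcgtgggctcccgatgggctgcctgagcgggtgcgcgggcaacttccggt
PSMB3: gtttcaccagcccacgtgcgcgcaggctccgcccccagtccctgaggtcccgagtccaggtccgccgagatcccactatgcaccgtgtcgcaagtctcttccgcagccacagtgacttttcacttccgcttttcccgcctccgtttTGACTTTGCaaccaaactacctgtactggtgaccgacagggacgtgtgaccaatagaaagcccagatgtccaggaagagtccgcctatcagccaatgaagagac
PSMD3: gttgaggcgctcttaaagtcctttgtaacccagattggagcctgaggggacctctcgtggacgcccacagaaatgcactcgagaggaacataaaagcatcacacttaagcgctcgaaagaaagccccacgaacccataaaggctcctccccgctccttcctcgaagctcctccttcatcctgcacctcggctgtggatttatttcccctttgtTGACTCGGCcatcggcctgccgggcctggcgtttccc
The capitals begin 134 bases before the start in PSMD5, 165 in PSMD12, 104 in PSMB3 and 37 in PSMD3, all read on the gene's strand. So the pattern, with other letters at its N positions in each gene, stood upstream of the 2 genes that fell and of 2 genes with fitted values above 0. RefSeq windows of 300 bases (250 before and 50 after the start) were matched by symbol for 40 of the 46 genes, without PSMA7, PSMB1, PSMB6, PSMB7, PSMD4 and PSMG3. TGACNNNGC was searched on both strands and was found in 12 of the 40 windows, or 30%, against 13.3% of all 35116 windows and 15% of the 10087 windows of tested protein-coding genes. The median GC content of the windows was 61.7% for the proteasome genes and 58.7% for all, and the shares were not matched for it. The looser form TGANNNNGC, which contains the first, was in 60.0% of the proteasome windows and 41.8% of all windows, and CCAAT, the box bound by NF-Y, was in 45% and 34.6%. The median fitted log2 fold change was 0.14 over the 12 genes with TGACNNNGC, 8 above 0 and 4 below, and 0.03 over the 25 tested genes whose window lacked it. Neither median includes the 6 genes without a matched window, whose motif status is unknown. PSMA7, PSMB1, PSMB6, PSMB7 and PSMD4 had fitted values of 0.43, 0.32, 0.32, 0.16 and 0.30, and PSMG3 had 0.03 to 0.52 with each library left out. The 2 medians therefore cannot show whether the motif goes with the difference.

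In the summed levels of core and cap, 2 of the 3 BP+Huaier libraries were high and the third was not. In the 20S core summed over its genes, BP 1, 2 and 3 had 2066, 2003 and 2174 CPM, BP+Huaier 1 and 2 had 2932 and 2703 CPM, and BP+Huaier 3 had 1952 CPM. The 19S particle followed the same order, with 2727, 2707 and 2785 CPM in BP, 3569 and 3349 CPM in BP+Huaier 1 and 2, and 2656 CPM in BP+Huaier 3. Both sums therefore overlapped between the groups, with BP+Huaier 3 below every BP library. Over all 46 genes the ratio of group means was 1.16, and 1.27 without BP+Huaier 3. By library size alone the ratio was 0.956. The 20S sum was then 2274, 2209 and 2352 CPM in BP and 2490, 2314 and 2024 CPM in BP+Huaier. The 19S sum was 3000, 2986 and 3012 CPM in BP and 3031, 2868 and 2754 CPM in BP+Huaier. On that scale only BP+Huaier 1 lay above every BP library. The ratio of the 19S sum to the 20S sum was 1.32 ± 0.035 in BP and 1.27 ± 0.077 in BP+Huaier (SD, n = 3), with overlapping values.

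Of the 43 genes, 31 had a BP+Huaier 3 value nearer to the BP mean than to the mean of BP+Huaier 1 and 2 on the log2 scale (CPM + 0.5). The median distance from the BP mean was 0.38, 0.31 and 0.12 in BP+Huaier 1, 2 and 3. Neither the count nor the distances were computed over all genes, so they cannot be read as particular to the proteasome genes. On the first principal component of all tested genes BP+Huaier 3 also stood apart from its group. Without BP+Huaier 3 edgeR called 21 of the 43 genes higher (48.8%) and 4 lower (9.30%), where 28.8% of all genes were then higher and 31.0% lower. The 21 were PSMA7, the beta subunits PSMB1 to PSMB7, PSMC3, PSMC4, PSMD2, PSMD3, PSMD4, PSMD7, PSMD8, PSMD9, PSMD11, PSMD13, PSME1, PSMG2 and PSMG3, and the 4 were PSMD1, PSMD5, PSMD12 and PSME4. By GC content of the transcripts, 17 of the higher calls were among the 22 most GC-rich of the 43 genes, with 0 lower calls. The other 21 genes held 4 higher calls and all 4 lower ones. No fit without BP+Huaier 3 had the dependence on GC content taken out. With each of the other libraries left out, at most 1 gene was called higher, PSMA2 without BP+Huaier 1, which was too low for the test with all libraries.

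**Figure D2:**
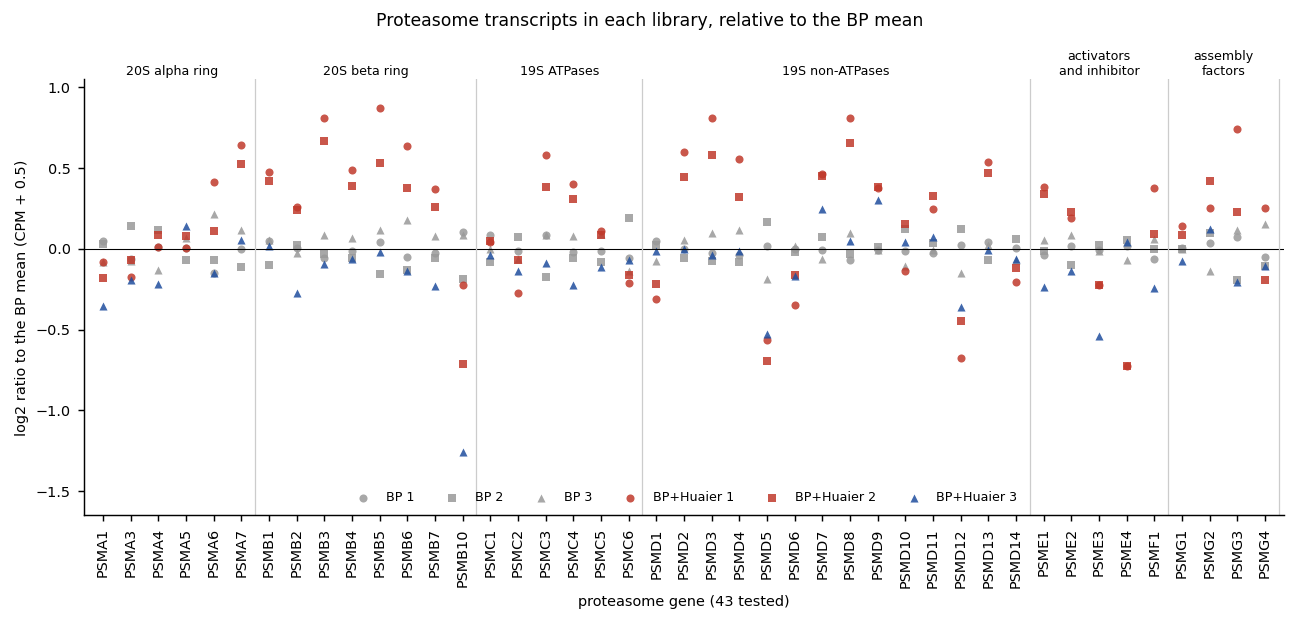
Log2 ratio of each library to the BP mean (y axis, CPM + 0.5) for the 43 tested proteasome genes (x axis, by subcomplex), with BP libraries in grey, BP+Huaier 1 and 2 in red and BP+Huaier 3 in blue. The red points of the beta ring other than PSMB10 lie above 0 while the blue ones lie within or below the grey BP values, and in PSMD5 and PSMD12 red and blue points lie below 0 together.

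In the alpha ring, which forms the gated outer rings of the core, 0 of 6 tested genes were called by edgeR, and 1 had an unadjusted p under 0.05. PSMA7 was at 259, 239.5 and 282 CPM in BP and at 406, 374 and 269 CPM in BP+Huaier. BP+Huaier 1 and 2 were above all BP libraries and BP+Huaier 3 was within them. The log2 fold change of PSMA7 was 0.43 ± 0.18 (SE; adjusted p = 0.094). The other 5 tested alpha genes had fitted log2 fold changes from -0.21 (PSMA1) to 0.14 (PSMA6). PSMA1 was the alpha gene whose groups did not overlap, with 22.5, 22.2 and 20.5 CPM in BP and 20.5, 19.1 and 16.9 CPM in BP+Huaier (adjusted p = 0.30). PSMA8, a testis form of an alpha subunit, had 0 counts in all 6 libraries, which allows a level of up to 0.160 to 0.222 CPM.

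In the beta ring 0 of 8 tested genes were called by edgeR, and 3 had an unadjusted p under 0.05. The catalytic subunit PSMB5 (ENSG00000100804.19, chromosome 14, 23016543 to 23035230) carries the chymotrypsin-like site, the target of bortezomib. It was at 160.4, 140.0 and 169 CPM in BP and at 286, 226 and 154 CPM in BP+Huaier. BP+Huaier 3 thus lay among the BP libraries, and the fitted fold of 1.42 had a 95% interval of 1.01 to 1.99 (adjusted p = 0.11). PSMB6, with the caspase-like site, was at 163 ± 18.5 and 203 ± 52.5 CPM (SD, n = 3; adjusted p = 0.25). PSMB7, with the trypsin-like site, was at 245 ± 12 and 273 ± 56.7 CPM (adjusted p = 0.51). The structural subunit PSMB3 had the highest fitted value of the core, a log2 fold change of 0.51 ± 0.22 (SE; adjusted p = 0.11). Its values were 233, 238 and 257 CPM in BP and 425, 386 and 227 CPM in BP+Huaier. The structural subunits PSMB1, PSMB2 and PSMB4 had log2 fold changes of 0.32, 0.10 and 0.29 (adjusted p = 0.15, 0.68 and 0.21).

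PSMB10 is the inducible catalytic subunit that replaces PSMB7 in the immunoproteasome, the form that interferon promotes for antigen processing. It was at 9.23, 7.45 and 9.10 CPM in BP and at 7.27, 5.02 and 3.29 CPM in BP+Huaier, where every BP+Huaier value lay below every BP value. Its log2 fold change of -0.73 ± 0.28 was the lowest of the set, but it did not pass the test (SE; adjusted p = 0.074). It passed under scaling by library size alone (0.023), with no filter on low counts (0.025), without BP+Huaier 1 (0.016) and with the GC and length dependence taken out (0.0035), in a range of 0.0035 to 0.21 over 16 alternatives. PSMB10 shares 45.3% of its principal transcript with ENSG00000261884, a protein-coding model on the same strand, so its level is uncertain. PSMB11, the thymus form, had 0 counts in all libraries.

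The 6 ATPases, PSMC1 to PSMC6, form the ring that unfolds substrates, and edgeR called 0 of them, with 0 at an unadjusted p under 0.05. Their fitted log2 fold changes ran from -0.16 (PSMC2) to 0.31 (PSMC3), and all 6 intervals lay within 1. PSMC2 was at 85.4, 90.5 and 82.4 CPM in BP and at 71.2, 82.0 and 78.3 CPM in BP+Huaier, the one ATPase without overlap (adjusted p = 0.36). PSMC1 was the closest to equal, at 67.5 ± 4.08 and 68.3 ± 2.18 CPM (SD, n = 3), with a 95% interval of the fold from 0.832 to 1.23. Exons of NRDE2 on the opposite strand cover 82.1% of its principal transcript, so that level is uncertain.

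The other 14 genes of the 19S particle went both ways: besides the falls of PSMD5 and PSMD12, 4 had an unadjusted p under 0.05 on the higher side and 12 were not called. PSMD2, the large base subunit that docks substrate shuttles, had the highest level of the set, 632, 608 and 657 CPM in BP and 957, 860 and 631 CPM in BP+Huaier. BP+Huaier 3 was again at the BP level (adjusted p = 0.14). PSMD8, a lid subunit, had the highest fitted value of all 43, a log2 fold change of 0.54 ± 0.20 (SE; adjusted p = 0.067), and PSMD3, also of the lid, had 0.49 ± 0.21 (adjusted p = 0.10). PSMD7, the lid partner of the deubiquitinase, was higher in all 3 BP+Huaier libraries, at 79.6, 79.0 and 68.4 CPM against 57.3, 60.6 and 55.0 CPM in BP. Its log2 fold change of 0.39 ± 0.13 sat at the threshold (SE; adjusted p = 0.050), and it passed with DESeq2 size factors (0.041), by DESeq2 (0.014) and by limma-voom (0.047). A transcript on the opposite strand covers 50.4% of the principal transcript of PSMD7, and that partner had at most 69 counts in a library.

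PSMD14, the deubiquitinase that removes the chain from the substrate, was at 91.9 ± 4.34 and 84.0 ± 4.11 CPM (SD, n = 3), with a fold interval from 0.753 to 1.11. PSMD4, a ubiquitin receptor, was at 198 ± 14.6 and 245 ± 47.7 CPM (adjusted p = 0.19). Of the remaining subunits, PSMD1, PSMD6, PSMD11 and PSMD13 had log2 fold changes of -0.18, -0.23, 0.22 and 0.35, with edgeR adjusted p from 0.13 to 0.34. The other base chaperones were not called. PSMD10 (gankyrin) was at 60.7 ± 4.85 and 61.6 ± 6.27 CPM (adjusted p = 0.925). PSMD9 was at 8.51, 8.62 and 8.50 CPM in BP and at 11.2, 11.3 and 10.7 CPM in BP+Huaier, with no overlap (adjusted p = 0.094). Its counts lay between 144 and 185 per library, and 28.2% of its principal transcript is shared with another gene model on the same strand.

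Of the activators, which open the core without ubiquitin, PSME3 and PSME4 had fitted values below 0, and edgeR called 0 of the 5 genes, with 1 at an unadjusted p under 0.05. PSME4 (PA200), the nuclear activator linked to histone turnover, was at 92.3, 94.6 and 86.9 CPM in BP and at 55.1, 54.9 and 93.9 CPM in BP+Huaier. BP+Huaier 1 and 2 were far below every BP library and BP+Huaier 3 was inside the BP range (adjusted p = 0.16). Without BP+Huaier 3 its log2 fold change was -0.72 (adjusted p = 4.1e-05) in place of -0.42. PSME3 (PA28 gamma) was at 178.3, 182 and 178.1 CPM in BP and at 154, 154 and 123 CPM in BP+Huaier, with no overlap (adjusted p = 0.11). PSME3 was called lower by library size alone (0.0056), with genes of at least 5 CPM (0.036) and with the GC and length dependence taken out (0.012). The interferon-inducible pair PSME1 and PSME2 were at 166 ± 5.78 and 189 ± 41.9 CPM, and at 101 ± 6.65 and 109 ± 14.6 CPM (SD, n = 3; adjusted p = 0.44 and 0.61). PSMF1 (PI31), first described as an inhibitor of the core, was at 127 ± 5.25 and 136 ± 28.9 CPM (adjusted p = 0.69).

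The assembly factors PSMG1 and PSMG2 form one chaperone pair of the alpha ring and PSMG3 and PSMG4 the other. EdgeR called 0 of the 4, with 0 at an unadjusted p under 0.05. PSMG1 was at 29.1 ± 0.062 and 30.2 ± 2.35 CPM and PSMG4 at 35.5 ± 3.52 and 35.4 ± 6.11 CPM (SD, n = 3). PSMG2 was at 72.9, 76.1 and 64.6 CPM in BP and at 84.9, 95.3 and 77.3 CPM in BP+Huaier, the one assembly factor without overlap (adjusted p = 0.17). PSMG3 varied most among the BP+Huaier libraries, at 72.4, 50.5 and 37.2 CPM (adjusted p = 0.33).

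In several libraries, not all, the values varied with the GC content of the transcripts. Across the 43 genes, which share their libraries and are not independent, each library's log2 ratio to the BP mean tracked the GC content of the longest transcript with r of 0.65, 0.44 and -0.13 in BP+Huaier 1, 2 and 3. In BP 1, 2 and 3, each set against the other BP libraries, r was 0.19, -0.66 and 0.57, so libraries of 1 group differed along the same axis. Over 14896 genes with a GC value the same libraries gave 0.44, 0.31, 0.04, 0.04, -0.49 and 0.48, in that order. Of the 22 most GC-rich proteasome genes (48.2% to 60.1%), 19 had a fitted value above 0, with a median of 0.31, and of the other 21 (32.0% to 47.9%) 10 did, with a median of -0.04. PSMD12 and PSMD5, at 37.9% and 41.2%, are among the GC-poorer, and PSMB3, PSMD3 and PSMD8, between 52.7% and 55.0%, are among the GC-richer. The part of GC content in the differences between groups was not tested beyond the removal of the trend.

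With the dependence on GC content and length taken out of each library by splines, 7 of the 43 genes were called higher (16.3%) and 4 lower (9.30%), against 19.5% and 19.6% of all genes. The 7 were PSMA7, PSMB1, PSMB3, PSMB5, PSMD7, PSMD8 and PSMD13, and the 4 were PSMB10, PSMD5, PSMD12 and PSME3. PSMD5 then had a log2 fold change of -0.44 (adjusted p = 0.0081) and PSMD12 of -0.28 (0.035). The correlation of the fitted value with GC content over the proteasome genes was 0.45 before and -0.02 after removal, while the median of the set was 0.10 before and 0.14 after. Over the 14896 genes with a GC value the correlation before removal was 0.26. The removal is built to take this trend out, so a correlation near 0 after it carries no information.

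**Figure D3:**
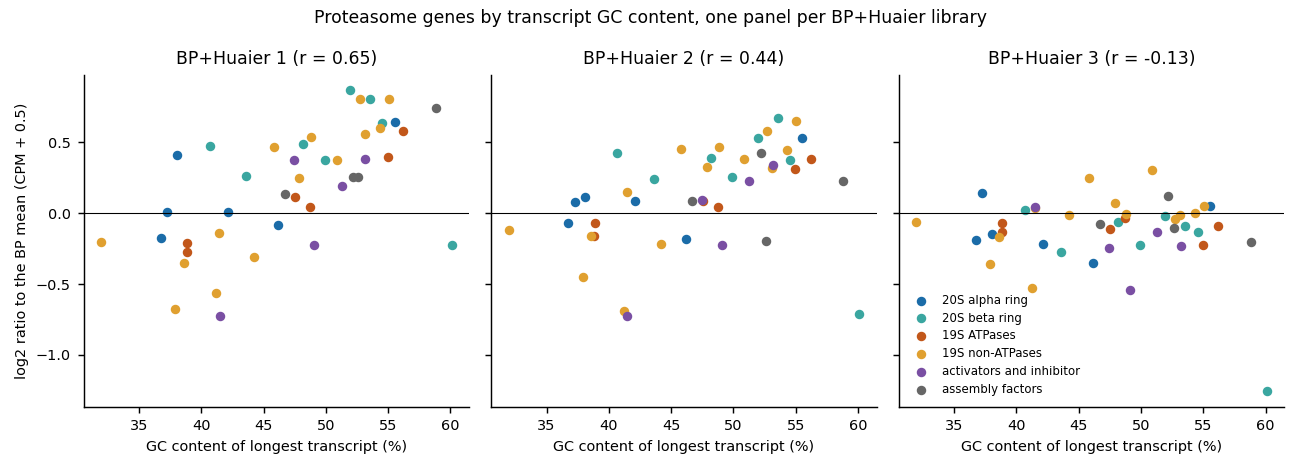
Log2 ratio to the BP mean (y axis, CPM + 0.5) against the GC content of the longest transcript (x axis, %) for the 43 tested proteasome genes, 1 panel per BP+Huaier library. The points climb with GC content in BP+Huaier 1 (r = 0.65) and BP+Huaier 2 (r = 0.44) and show no such slope in BP+Huaier 3 (r = -0.13).

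Levels of the subunits were far from equal per length, although each stable subunit of a ring is built in at the same number of copies. In CPM per kilobase of the principal transcript, a level, the beta subunits PSMB1 to PSMB7 ran from 67.7 ± 1.17 (PSMB2) to 336 ± 15 (PSMB4) in BP (SD, n = 3), a range of 4.96-fold. The ATPases ran from 15.2 (PSMC1) to 70.5 (PSMC4), and the 11 other stable 19S subunits from 19.4 (PSMD12) to 183 (PSMD2). In the alpha ring the range was 0.11 (PSMA2) to 261 (PSMA7). The order of neighbours such as PSMB6 (191 ± 21.7) and PSMB1 (196 ± 11.9) is within their spread. Some of the extremes changed with the length used. As TPM on the deposited length, the lowest ATPase was PSMC6 (36.0) and the lowest other stable 19S subunit was PSMD6 (32.0). The highest beta subunit on that scale was PSMB3 (891).

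The 3 lowest of the 7 alpha genes with any count are the ones whose transcripts are shared with another gene model on the same strand. PSMA2 (ENSG00000106588.12, chromosome 7, 42916828 to 42932185), a constitutive alpha subunit, had 4, 4 and 1 counts in BP and 4, 20 and 18 in BP+Huaier, and was too low to be tested. The model ENSG00000256646 covers 99.1% of its principal transcript and itself had at most 2 counts in a library. PSMA6, at 9.99 ± 1.42 CPM per kilobase, is covered over 81.0% by ENSG00000258790 (at most 4 counts), and PSMA1, at 14.4 ± 0.71, over 53.2% by ENSG00000256206 (0 counts in all 6 libraries). Whether the counting split, assigned or left out reads that lie on 2 genes is not stated in those sources, so the levels of PSMA1, PSMA2 and PSMA6, and any ratio to other subunits, are uncertain. The 4 alpha subunits without such overlap ran from 25.2 (PSMA4) to 261 (PSMA7) CPM per kilobase, 10.4-fold. The table also lists 44 pseudogenes named after the set, 17 of them with any count, and the highest had 151 counts over all 6 libraries.

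**Figure D4:**
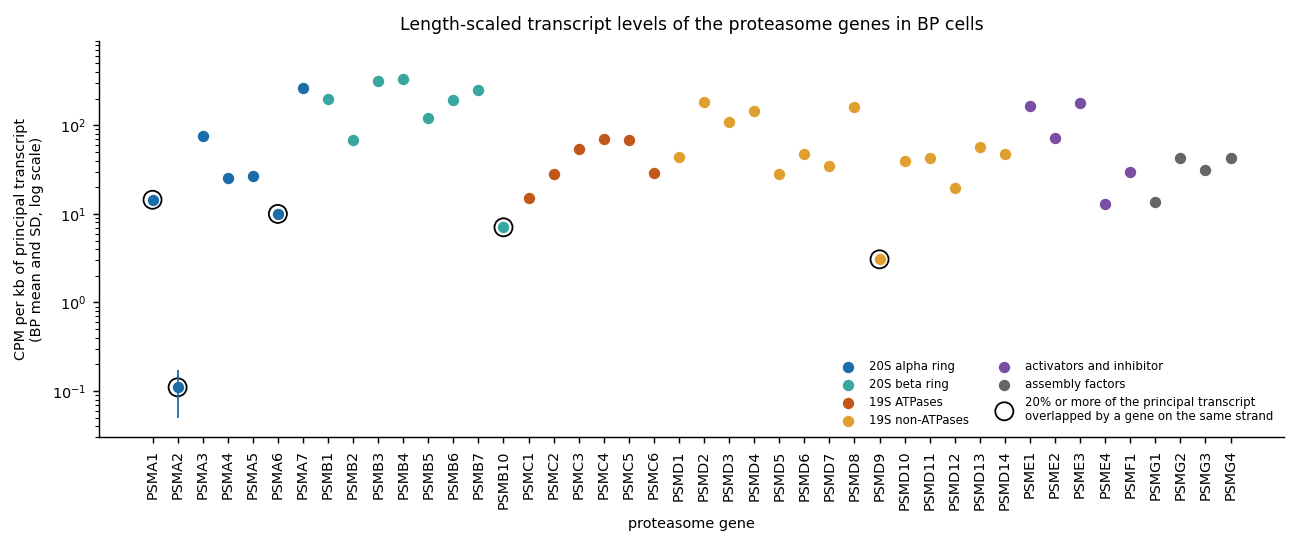
Level of each detected proteasome gene in BP cells, in CPM per kilobase of the principal transcript (y axis, log scale, mean and SD of 3 libraries, SD bars often smaller than the point), coloured by subcomplex, with black rings on genes sharing 20% or more of that transcript with a gene on the same strand. PSMA2, PSMA6, PSMB10 and PSMD9, all ringed, are the lowest 4 points, and PSMA2 lies at 0.11.

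Among the called genes of the 3 related lists, the small MAF partners of NFE2L1 had the largest fold changes. Of the 7 genes of the NFE2L1 pathway 4 rose and 3 were not called by edgeR (57.1% called, against 29.3% of all genes), with a median log2 fold change of 0.54. The 3 lists were drawn up when earlier results of these data were known. Their shares of called genes therefore cannot test for an excess or a lack against all genes. MAFF rose 7.54-fold, from 28.6, 29.6 and 29.8 CPM in BP to 202, 341 and 120.0 CPM in BP+Huaier (adjusted p = 0.0012). MAFG rose 3.13-fold (adjusted p = 8.9e-04) and MAFK 3.10-fold (0.0014). NFE2L1 itself, the factor that raises subunit genes, rose 1.45-fold, from 179, 169 and 193 CPM to 279, 284 and 221 CPM (adjusted p = 0.026). Its call was lost without each library other than BP+Huaier 3 (0.053 to 0.12) and with library size alone (0.080) and with the replicate number as a block (0.079). DDI2, the protease that cuts NFE2L1, was at 38.0, 34.6 and 34.3 CPM in BP and at 12.1, 14.5 and 32.7 CPM in BP+Huaier (adjusted p = 0.081), and NGLY1 had a log2 fold change of -0.02 (0.92). NFE2L2, the related antioxidant factor, was not called (adjusted p = 0.55). DDI2 was called lower by DESeq2 (0.040), by limma-voom (0.041) and without BP+Huaier 3 (1.4e-06).

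Of 13 other subunits and bound factors without a PSM symbol, 2 rose and 2 fell (30.8% called, near the 29.3% of all genes). ADRM1, the ubiquitin receptor that docks on PSMD2, rose 1.96-fold, from 83.8, 77.7 and 96.2 CPM to 209, 187 and 109 CPM (adjusted p = 0.015). AKIRIN2, which carries proteasomes into the nucleus, rose 1.35-fold (0.032), whereas IPO9, the import receptor that works with it, fell 1.74-fold (0.0035). ECPAS, a scaffold that holds core and cap together, fell 1.99-fold, from 132, 127 and 124.5 CPM to 52.6, 51.1 and 88.9 CPM (adjusted p = 0.011). The core maturation factor POMP was at 67.6 ± 2.37 and 82.1 ± 14.5 CPM (SD, n = 3; adjusted p = 0.20), and SEM1, a small lid subunit, at 59.2 ± 7.19 and 57.2 ± 1.74 CPM (0.81). ADRM1 was not called once BP 1 (0.064), BP 2 (0.080) or BP+Huaier 2 (0.067) was left out, and ECPAS was not called without BP+Huaier 2 (0.054). The adjusted p of AKIRIN2 was 0.05 or more under 8 of 16 alternatives.

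Upstream of the proteasome, 3 of 17 genes of ubiquitin supply and substrate delivery rose and 1 fell (23.5% called, against 29.3% of all genes). UBB, a polyubiquitin gene, rose 1.73-fold, from 378, 381 and 404 CPM in BP to 727, 827 and 461 CPM in BP+Huaier (adjusted p = 0.023), with no overlap. RPS27A, which encodes ubiquitin fused to a ribosomal protein, had a log2 fold change of -0.01 (adjusted p = 0.95). UBQLN4, a shuttle, and UFD1, a cofactor of the segregase VCP, rose 1.46-fold and 1.42-fold (0.025 and 0.020), and FAF2, a VCP adaptor of the endoplasmic reticulum, fell 1.54-fold (0.0098). VCP was at 333 ± 15.3 and 366 ± 58.3 CPM (SD, n = 3; adjusted p = 0.52). The UBB call was lost without each library other than BP+Huaier 1 and 3 (0.075 to 0.097), and the FAF2 call without BP 1 (0.067), BP 2 (0.051) or BP+Huaier 2 (0.058). The UBQLN4 and UFD1 calls were lost with library size alone (0.074 and 0.15) and without any BP library or BP+Huaier 2 (0.071 to 0.12 and 0.077 to 0.11), and UBQLN4 also without BP+Huaier 1 (0.056).

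**Figure D5:**
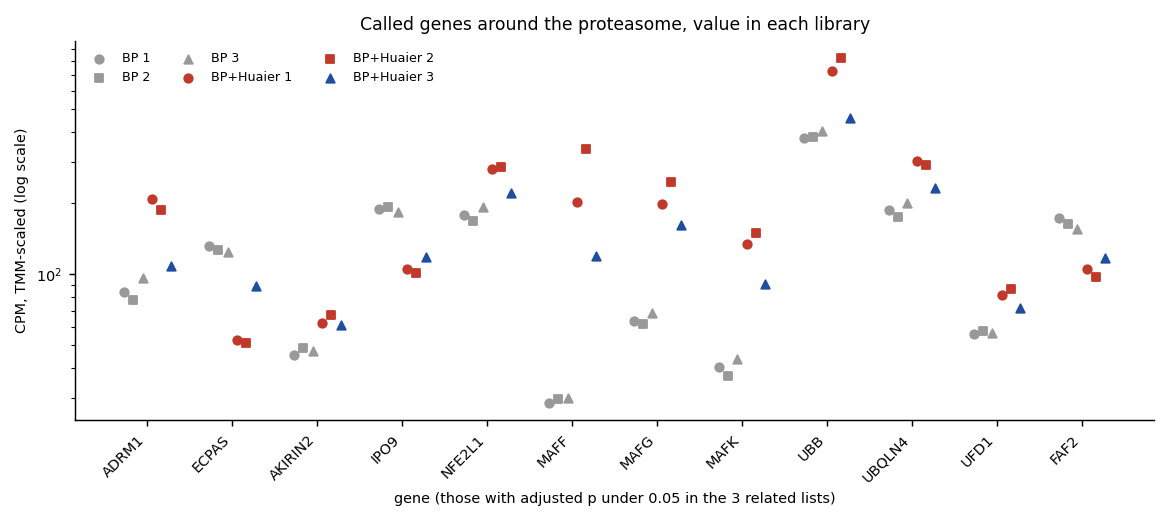
TMM-scaled CPM (y axis, log scale) in each of the 6 libraries for the 12 genes of the 3 related lists with an adjusted p under 0.05, BP in grey, BP+Huaier 1 and 2 in red and BP+Huaier 3 in blue. In ADRM1, MAFF and UBB the blue point lies between the grey and the red points, and IPO9 and FAF2 have red and blue points below all grey ones.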

How the data were processed

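RNA of MIA PaCa-2 cells was sequenced as 6 paired-end libraries (NEBNext Ultra), per the labels' protocols. The authors deposited whole-number counts per gene. The submitters' processing notes name fastp 0.20.0, HISAT2 2.1.0, featureCounts 1.6.1 and GRCh38. The annotation release and the settings for strand, multiply mapped reads and reads on 2 genes are not in the sources used here.

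Of 60651 rows, 3 broken lines and 44 duplicates of the Y chromosome's pseudoautosomal region were left out. Genes were kept by edgeR's filterByExpr, scaled by TMM and fitted by group with edgeR 4.0.16 (robust quasi-likelihood test, R 4.3.3), with Benjamini-Hochberg adjustment over 15022 genes. The biological coefficient of variation was 18.1%. Intervals are 95% and SEs come from the fit, and every adjusted p with no other tool named is edgeR's. DESeq2 1.42.0 and limma-voom (limma 3.58.1) were alternatives, as were other scalings, filters, each library left out, and taking the dependence on GC content and length out of each library by splines (5 degrees of freedom). The fit was tested on simulated data. GC content, biotypes and principal transcripts came from GENCODE 29, and promoters from RefSeq (GRCh38.p14). Exon overlaps used the exon coordinates deposited with the counts.

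The members and lists were chosen with earlier results of these data known. Named were, in each subcomplex, called genes, a fixed set of catalytic, chaperone, receptor and activator genes, and those that differed most or least. Alternatives to the length scale, the related lists and the summed level were chosen after seeing the data. Of the ubiquitin list, 2 genes are not reported here, and its counts are without them.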

Additional observations from a re-analysis of the deposited data

How the results depend on the processing

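PSMD5 and PSMD12 kept their direction under all 16 alternatives. At an adjusted p under 0.01 neither was called (0 lower). The number of proteasome genes called higher, 0 in the report, was 1 with DESeq2 size factors, 2 by DESeq2, 1 by limma-voom, 6 unfiltered and 7 with the GC and length dependence taken out (trend removal). The number called lower, 2 in the report, was 6 by library size alone, 1 with the replicate block and 4 after trend removal. In the 20S core 4 genes were higher unfiltered and 4 after trend removal. In the 19S particle 1 was higher with DESeq2 size factors, 2 by DESeq2, 1 by limma-voom, 2 unfiltered and 3 after trend removal.

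Over all genes, 1051 were higher by library size alone, 1357 with the replicate block and 826 at an adjusted p under 0.01, against 2160. At least 5 CPM left 1373 lower and an adjusted p under 0.01 left 810, against 2246. The calls in the list of other subunits and bound factors went from 4 to 8 after trend removal and to 1 at an adjusted p under 0.01, and those in the ubiquitin list from 4 to 8 and to 1. By library size alone the median log2 fold change of the proteasome genes was -0.17 and the ratio of summed levels 0.956. The mean coefficient of variation of alpha ring levels in BP was 156% per principal transcript, 172% as TPM on the deposited length, and 115% and 126% without PSMA1, PSMA2 and PSMA6. The looser motif took the promoter share from 30% to 60%. The cause of these shifts was not tested.

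With each library left out in turn, proteasome genes called higher ranged from 0 to 21 and lower from 0 to 4. The ranges were 0 to 8 in the 20S core, 0 to 10 in the 19S particle and 0 to 3 in activators and assembly factors. Over all genes they were 810 to 4452 higher and 909 to 4793 lower. The lists had 1 to 9 (bound factors), 3 to 5 (NFE2L1 pathway) and 0 to 13 calls (ubiquitin), and the median ran from 0.05 to 0.26. The ratio of summed levels was recomputed only without BP+Huaier 3 (1.27).

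Same-numbered libraries of the groups deviated together with correlations of 0.01, -0.06 and -0.28, and not every library correlated best with its own number. With 3 libraries per group these correlations cannot decide whether the numbers pair the samples. With the replicate block PSMD12 (0.082), NFE2L1 (0.079), AKIRIN2 (0.10), UBQLN4 (0.075) and UFD1 (0.068) were not called, and DDI2 (0.046) and UBA6 (0.040) were called.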

Other observations

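Of 6 noncoding transcripts named after proteasome genes, as antisense or divergent, 4 were too low to test, 1 fell and 1 was not called. PSMG3-AS1, a long noncoding RNA beside the chaperone gene PSMG3 on the opposite strand, was at 13.4, 9.69 and 12.7 CPM in BP and at 2.65, 2.66 and 3.57 CPM in BP+Huaier. It fell by 2.00 ± 0.22 on the log2 scale (SE; edgeR adjusted p = 0.0011), with all 3 BP+Huaier libraries below every BP library, while PSMG3 itself was not called (0.33). The exons of the pair overlap over 60 bases. PSMA3-AS1 was at 10.5, 9.84 and 8.03 CPM in BP and at 3.21, 3.69 and 9.05 CPM in BP+Huaier, so BP+Huaier 3 lay inside the BP range (edgeR adjusted p = 0.11). Without BP+Huaier 3 its log2 fold change was -1.45 (edgeR adjusted p = 3.4e-05). The sources used here do not say whether counting was by strand, so reads of a gene and its antisense partner may not be told apart.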
